A study of Mus musculus with 2 samples.

Results

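The MYC, MAX and MXD network was examined in mouse lung cancer cells as 10 genes chosen by symbol: *Myc*, *Mycn*, *Mycl*, *Max*, *Mlx*, *Mnt*, *Mxi1*, *Mxd1*, *Mxd3* and *Mxd4*. All 10 were found among the 23183 genes listed in each library. The genes encode transcription factors with a basic helix-loop-helix leucine zipper that bind DNA as dimers. MYC proteins pair with MAX, bind E-box sequences (CACGTG) and activate genes for cell growth, ribosome production and metabolism. The MXD proteins and MNT compete for MAX, bind the same E-boxes and recruit the SIN3-HDAC corepressor, which silences the genes that MYC activates. MLX is a second partner, used by MXD1, MXD4 and MNT and by the glucose sensors MondoA and ChREBP. In K-Ras-driven lung tumors, MYC acts downstream of the RAS pathway and sustains tumor growth.

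RNA of 2 conditions was compared, with 1 library each. KPR- cells were an immortalized line from a lung cancer of a mouse carrying Runx3 flox/FSF, a Tomato tracer, FlpERT2, p53 flox/flox and K-Ras LSL-G12D/+, infected with Cre adenovirus but given no tamoxifen. Cre switched on mutant *K-Ras* and deleted *p53* and the floxed *Runx3* allele, so that both libraries share these changes, and the FSF cassette kept the remaining *Runx3* allele silent. KPR_restored cells were the same line after 4-hydroxytamoxifen (4-OHT) activated FlpERT2, which removes the cassette. The labels give the genotypes as RUNX3 -/- at 0 h and RUNX3 -/+ at 16 h, and list 1 μM 4-OHT for both. Restoration, 4-OHT and time in culture therefore cannot be told apart, the cells are from a tumor line rather than from several animals, and no difference has a replicate check.

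Levels were given as FPKM, fragments scaled to the length of the transcript and to sequencing depth, and can be compared between genes of different length. A depth of 21.9 M fragments in KPR- and 22.5 M in KPR_restored was estimated from the steps of low FPKM values. From it, the fragments behind each value and 95% intervals were computed, and these cover counting error only. A difference is log2(FPKM + 0.005) in the library labelled KPR_restored minus that in the library labelled KPR-, and a gene was called higher or lower at 0.5 or more on this scale. *Runx3* had 0.348 and 0.349 FPKM (KPR- and KPR_restored, the order used throughout), a difference of 0.0074 with an interval of -0.79 to 0.81, so its level per gene does not check the labels.

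The epithelial markers were abundant in both libraries, from 105 FPKM (*Epcam*) to 1931 FPKM (*Krt18*) in KPR- for the 7 genes of the list, and their sum differed by -0.16. Of these 7 genes, *Cldn4* was higher (107 and 202 FPKM, 0.92) and *Krt7* was lower (1229 and 743 FPKM, -0.73), while *Krt8*, *Krt19*, *Cdh1*, *Epcam* and *Krt18* were not called. Of the lung lineage markers, *Sftpc*, *Sftpb*, *Scgb1a1* and *Napsa* were listed at 0 in both libraries and *Nkx2-1* had 0.0444 and 0.0216 FPKM, while *Foxa2* had 10.7 and 16.1 FPKM. The immune markers summed to 3.13 and 6.79 FPKM, almost all from *Cd68*, and the pan-leukocyte gene *Ptprc* was listed at 0 and at 0.00892 FPKM. The fibroblast markers summed to 12.7 and 5.35 FPKM, mostly *Col1a1* (12.2 and 4.21 FPKM), and the endothelial markers to 1.16 and 2.22 FPKM, mostly *Kdr* (1.10 and 2.05 FPKM). The part of other cells in the values below was not tested.

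Of the 10 network genes, 5 were higher and 3 were lower in the library labelled KPR_restored, and *Max* and *Mlx* lay between. In RNA of a whole culture, fewer cells with a transcript and less of it per cell cannot be told apart. Of the 11231 genes that averaged 1 FPKM or more over both libraries, called expressed genes from here on, 12.1% were higher and 9.29% were lower. Only *Mycn* had a mean FPKM under 1, and of the other 9 network genes 5 were higher and 2 were lower. Without any filter on level, 19.3% of the 16508 genes detected in either library were higher and 18.2% were lower. The median difference was 0.43 over the 10 genes and 0.0086 over the 11231 genes, whose quartiles were -0.23 and 0.27. The genes that were higher are *Myc* and 4 of the 5 antagonists, and those that were lower are *Mycl*, *Mycn* and the antagonist *Mxd3*.

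**Figure D1:**
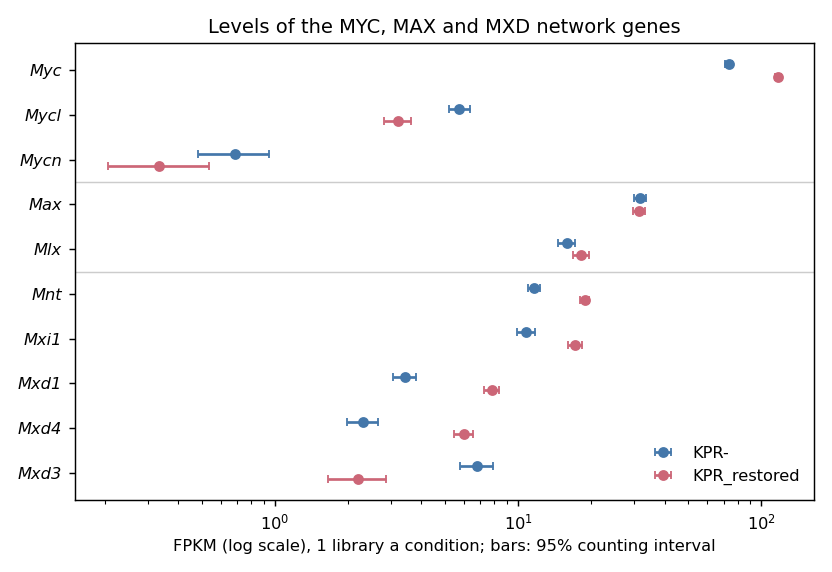
FPKM (log axis) of the 10 network genes in the KPR- library (blue) and the KPR_restored library (red), with MYC genes at the top, partners in the middle and antagonists at the bottom. Points are 1 library each and bars are 95% counting intervals; *Myc* is the most abundant in both libraries and *Mycn* the least.

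To place these genes in the genome and show the E-box letters in their own promoters, RefSeq promoters on GRCm38.p6 (250 bases before to 50 bases after each start) were searched on both strands for CACGTG, which reads the same on either strand. An entry was found for 9 of the 10 genes, not for *Myc*, and 4 of these 9 hold the letters: *Mxd4*, *Mnt*, *Mlx* and *Max*. Of the expressed genes, 12.3% of the 8594 with an entry have a promoter with CACGTG, as do 8.09% of all 27025 genes with an entry. The 4 stretches are shown 5′ to 3′ on the strand of the gene, with the E-box in capitals, because they are the letters that MYC-MAX and MXD-MAX dimers are known to bind.
Mxd4, chr5:34187914-34187939, minus strand: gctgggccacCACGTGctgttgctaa
Mnt, chr11:74830791-74830816, plus strand: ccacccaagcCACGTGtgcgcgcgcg
Mlx, chr11:101087240-101087265, plus strand: tgggttggatCACGTGactgagcctc
Max, chr12:76962236-76962261, minus strand: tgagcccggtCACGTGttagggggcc

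The starts are those of RefSeq and differ from the ends of the GENCODE gene spans given here, by 10 bases for *Mxd4*, 4 for *Mnt*, 13 for *Mlx*, 47 for *Max* and 92 for *Mxd3*. The RefSeq start lies before the GENCODE span in *Max* and inside it in the other 4 genes. With the RefSeq start as position 1 and no position 0, the E-box ran from -219 to -214 in *Mxd4*, from -123 to -118 in *Mnt*, from -40 to -35 in *Mlx* and from -3 to 3 in *Max*, across the RefSeq start and wholly before the GENCODE span. These 4 genes had differences of 1.37, 0.69, 0.19 and -0.01, so that the letters were present in promoters of genes that were higher and of genes that were not called. The core RUNX letters TGTGGT, searched on both strands, were in 0 of the 9 genes with an entry, against 14.5% of expressed genes, which says only that these letters are not in the windows searched.

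The 250 bases before the RefSeq start of the antagonists with the highest and the lowest difference, *Mxd4* and *Mxd3*, are given with CACGTG in capitals. The *Mxd3* stretch holds none, and the last 92 of its bases lie inside the GENCODE span of the gene.
Mxd4, chr5:34187711-34187960, minus strand: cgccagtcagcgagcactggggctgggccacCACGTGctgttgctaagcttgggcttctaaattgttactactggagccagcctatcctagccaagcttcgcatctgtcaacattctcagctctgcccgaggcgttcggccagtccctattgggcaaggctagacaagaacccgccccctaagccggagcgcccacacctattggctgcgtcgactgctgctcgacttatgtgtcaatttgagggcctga
Mxd3, chr13:55329732-55329981, minus strand: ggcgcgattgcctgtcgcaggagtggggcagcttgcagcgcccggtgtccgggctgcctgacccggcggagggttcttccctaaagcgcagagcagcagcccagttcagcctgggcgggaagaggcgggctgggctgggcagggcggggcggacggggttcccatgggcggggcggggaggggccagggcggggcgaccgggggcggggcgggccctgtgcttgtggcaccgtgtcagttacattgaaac

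*Myc* (ENSMUSG00000022346.15), which spans 61985391 to 61990374 of chromosome 15 (GRCm38, plus strand) with 3 exons in its longest RefSeq-matched transcript, encodes the growth-promoting MYC protein. It had 73.6 FPKM in KPR- and 117 FPKM in KPR_restored, the highest level of the network in either library. The difference was 0.67, a 1.59-fold higher level, with a counting interval of 0.61 to 0.73 from about 3423 and 5597 fragments. Of the 11231 genes, 7.16% were higher by as much or more, and the difference lay between the 5th and the 95th percentile of expressed genes (-0.65 and 0.80). *Pvt1*, the long noncoding RNA gene beside *Myc* on the same chromosome, had 3.57 and 3.52 FPKM, a difference of -0.02 with an interval of -0.43 to 0.38.

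*Mycl* (ENSMUSG00000028654.13; chromosome 4, 122995652 to 123002485, plus strand) encodes the MYC protein first described in small cell lung cancer. It was lower, with 5.74 and 3.21 FPKM, a difference of -0.84 and an interval of -1.08 to -0.61. Among expressed genes, 2.41% were lower by as much. *Mycn* (ENSMUSG00000037169.15; chromosome 12, 12936093 to 12941914, minus strand), the gene amplified in neuroblastoma, had 0.689 and 0.335 FPKM. Its difference of -1.03 rested on about 37 and 19 fragments, with an interval of -1.88 to -0.17. The MYC genes thus did not share a direction, since the abundant *Myc* was higher and the less abundant *Mycl* and *Mycn* were lower. With a pseudocount of 1 the difference of *Mycn* was -0.34, under the threshold.

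In summed FPKM, the MYC family had 80.0 and 120.7 FPKM, a difference of 0.59, since *Myc* made up 92.0% of the sum in KPR- and 97.1% in KPR_restored. The share of *Mycl* was 7.17% and 2.66%, and that of *Mycn* 0.861% and 0.278%.

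**Figure D2:**
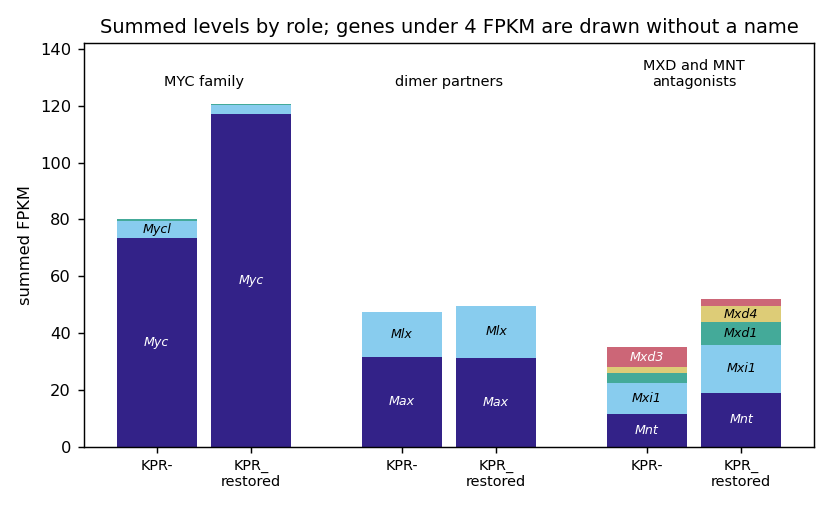
Summed FPKM (linear axis from 0) of the MYC genes, the dimer partners and the antagonists in each library, stacked by gene. The MYC stack reaches 80.0 and 120.7 FPKM and is nearly all *Myc*, the partner stacks are 47.5 and 49.5 FPKM, and the antagonist stacks are 34.9 and 51.9 FPKM.

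*Max* (ENSMUSG00000059436.13; chromosome 12, 76937269 to 76962201, minus strand), the partner shared by MYC and MXD proteins, had 31.6 FPKM in KPR- and 31.4 FPKM in KPR_restored. The difference was -0.01 with an interval of -0.13 to 0.10 from about 1198 and 1219 fragments, which is well inside the threshold of 0.5 on either side. *Mlx* (ENSMUSG00000017801.15; chromosome 11, 101087277 to 101092207, plus strand) had 15.9 and 18.2 FPKM. Its difference of 0.19, with an interval of 0.03 to 0.35, was also under the threshold, and 30.9% of expressed genes were higher by as much. *Mlx* shares 385 bases with *Psmc3ip* on the opposite strand, which had 17.2 and 15.1 FPKM. The libraries were made with a directional kit, but whether strand was used in mapping is not given in the sources used here.

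Because *Myc* was higher and *Max* was not, the ratio of *Myc* to *Max* FPKM was 2.33 in KPR- and 3.74 in KPR_restored. The summed antagonists were 1.10 and 1.66 times *Max*. *Myc* relative to the summed antagonists was 2.11 and 2.26, a log2 difference of 0.10, which is smaller than that of either *Myc* or the antagonist sum. These are ratios of RNA levels and do not show how the proteins pair.

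Among the antagonists, *Mxd4* (ENSMUSG00000037235.13; chromosome 5, 34173883 to 34187720, minus strand) had the highest difference of the network. MXD4 is an antagonist associated with cells that leave the cell cycle and differentiate. Its FPKM was 2.30 in KPR- and 5.97 in KPR_restored, a difference of 1.37 (2.59-fold) with an interval of 1.13 to 1.62. Of all expressed genes, 1.39% were higher by as much. *Mxd1* (ENSMUSG00000001156.9; chromosome 6, 86647042 to 86669161, minus strand), also known from differentiating cells, had 3.43 and 7.78 FPKM. Its difference was 1.18 (2.27-fold) with an interval of 1.00 to 1.37, reached by 1.97% of expressed genes. *Mxd1* and *Mxd4* were the only network genes higher by 1 or more, against 2.89% of expressed genes. *Mxd3* was the only expressed network gene lower by 1 or more, against 1.38%. *Mycn* was also lower by 1 or more, but its mean FPKM was under 1, so the 1.38% does not cover it.

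*Mxi1* (ENSMUSG00000025025.14; chromosome 19, 53310518 to 53375810, plus strand) had 10.8 and 17.2 FPKM, a difference of 0.67 with an interval of 0.52 to 0.82. *Mnt* (ENSMUSG00000000282.12; chromosome 11, 74830920 to 74845725, plus strand), the antagonist found in most cell types, had 11.6 and 18.8 FPKM, a difference of 0.69 with an interval of 0.58 to 0.80. Both genes and *Myc* were higher by nearly the same factor, 1.59-fold for *Mxi1* and *Myc* and 1.61-fold for *Mnt*, and their intervals overlapped. Of expressed genes, 7.18% were higher by as much as *Mxi1* and 6.86% by as much as *Mnt*, and both genes, like *Myc*, lay below the 95th percentile.

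*Mxd3* (ENSMUSG00000021485.14; chromosome 13, 55325168 to 55329823, minus strand) went the other way from the rest of its family. MXD3 is known from proliferating cells in S phase rather than from differentiating cells. It had 6.78 FPKM in KPR- and 2.21 FPKM in KPR_restored. The difference was -1.62 (0.326-fold), with an interval of -2.09 to -1.18 from about 165 and 55 fragments. Of the 11231 expressed genes, 39 (0.347%) were lower by as much or more, which made it the network gene farthest from the bulk of expressed genes. *Prelid1*, which shares 105 bases with *Mxd3* on the opposite strand, had 295 and 309 FPKM, a difference of 0.07.

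**Figure D3:**
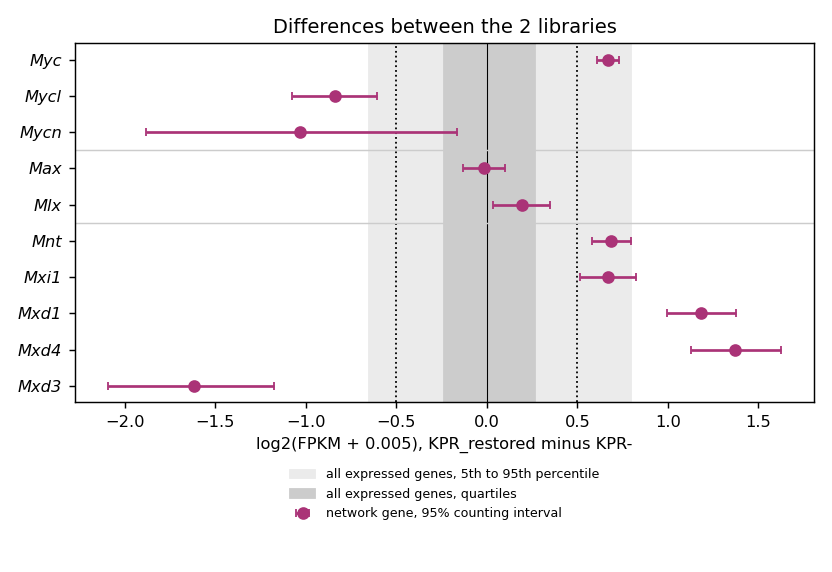
Difference of log2(FPKM + 0.005), KPR_restored minus KPR-, for the 10 network genes, with 95% counting intervals, the 0.5 thresholds (dotted) and the range of the 11231 expressed genes (dark grey, quartiles of -0.23 and 0.27; light grey, the 5th to the 95th percentile, -0.65 to 0.80). *Mxd4* (1.37) and *Mxd1* (1.18) lie above the light grey range, *Mxd3* (-1.62), *Mycn* (-1.03) and *Mycl* (-0.84) lie below it, and *Max* is at -0.01.

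The make-up of the antagonist pool therefore differed between the libraries. *Mxd3* was 19.4% of the summed antagonist FPKM in KPR- and 4.25% in KPR_restored, whereas *Mxd4* was 6.59% and 11.5% and *Mxd1* was 9.82% and 15.0%. *Mnt* (33.3% and 36.2%) and *Mxi1* (30.8% and 33.1%) were the largest shares in both. The ratio of *Mxd3* to *Mxd4* was 2.94 in KPR- and 0.369 in KPR_restored. The antagonists summed to 34.9 and 51.9 FPKM, a difference of 0.57, and without *Mnt* to 23.3 and 33.1 FPKM, a difference of 0.51.

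The order of levels in KPR- was *Myc*, *Max*, *Mlx*, *Mnt*, *Mxi1*, *Mxd3*, *Mycl*, *Mxd1*, *Mxd4* and *Mycn*. The counting intervals of *Mnt* and *Mxi1* overlapped, and so did those of *Mxd3* and *Mycl*. In KPR_restored, the order was *Myc*, *Max*, *Mnt*, *Mlx*, *Mxi1*, *Mxd1*, *Mxd4*, *Mycl*, *Mxd3* and *Mycn*, with overlapping intervals for *Mnt* and *Mlx*, for *Mlx* and *Mxi1* and for *Mycl* and *Mxd3*. *Mxd3* was at place 6 in KPR- and at place 9 in KPR_restored, while *Mxd1* went from place 8 to place 6 and *Mxd4* from place 9 to place 7.

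Of the 3 further partners of MAX and MLX, 2 of them expressed, none was called. Among expressed genes 12.1% were higher and 9.29% lower, so that none of so few is unremarkable. *Mga*, a MAX partner that represses germline and MYC target genes, had 11.8 and 12.5 FPKM, a difference of 0.08. *Mlxip*, which encodes MondoA, had 7.39 and 7.08 FPKM, a difference of -0.06, and *Mlxipl*, which encodes ChREBP, had 0.159 and 0.129 FPKM from about 12 and 10 fragments. *Zbtb17*, which encodes MIZ1, the factor through which MYC represses CDK inhibitor genes, had 6.07 and 7.92 FPKM, a difference of 0.38. *Hcfc1*, a MYC cofactor, had 53.3 and 42.7 FPKM, a difference of -0.32.

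Most genes for the machinery that the network recruits had differences a little below 0. Of the 12 MYC coactivator genes, 0 were higher and 1 was lower, with a median of -0.13. *Bptf*, a chromatin remodeler, had 17.7 and 12.2 FPKM (difference -0.54) and the scaffold *Trrap* had 21.6 and 15.8 FPKM (-0.45), while the acetyltransferase *Kat5* (0.32) and the elongation kinase *Cdk9* (0.20) had the highest differences. Of the 10 SIN3-HDAC corepressor genes, 0 were higher and 1 was lower, with a median of -0.19. The gene called, *Sap18*, had 4.67 and 3.08 FPKM (-0.60), and 0 were lower with a pseudocount of 1 or a mean FPKM of at least 5. The other low values were led by *Rbbp7*, with 192 and 159 FPKM (-0.27). The highest differences were those of *Sin3b*, with 52.4 and 68.9 FPKM (0.39), and *Sap30* (0.14). The median over all expressed genes was 0.0086, and 12.1% of these were higher and 9.29% lower.

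Of the 24 genes for MYC protein turnover, 2 were higher and 3 were lower, against 12.1% and 9.29% of expressed genes, and the median was 0.07. The deubiquitinase gene *Usp22* had 33.2 and 63.8 FPKM, a difference of 0.94, and the ubiquitin ligase gene *Trim32* had 9.13 and 14.2 FPKM, a difference of 0.64. The ligase genes *Skp2* (20.3 and 13.2 FPKM, -0.62) and *Huwe1* (53.9 and 36.7 FPKM, -0.56) were lower, and so was *Cip2a* (29.7 and 20.2 FPKM, -0.56), whose product shields MYC from the phosphatase PP2A. *Fbxw7*, the ligase that recognizes phosphorylated MYC, had 5.52 and 6.10 FPKM, a difference of 0.14 with an interval of -0.03 to 0.32.

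Of 15 expressed regulators of *Myc* transcription, of a list of 16, 0 were higher and 0 were lower, against 12.1% and 9.29% of expressed genes, and their median was -0.04. The Wnt pathway factors *Tcf7l1* (3.60 and 4.75 FPKM) and *Tcf7l2* (7.34 and 5.73 FPKM) had differences of 0.40 and -0.36, *Fubp1*, which binds DNA upstream of *Myc*, had 38.6 and 29.3 FPKM (-0.40), and *Stat3* had a difference of 0.06. Of the 10 reference genes, 0 were called, with a median of -0.05 and differences from -0.35 (*Actb*) and -0.27 (*Ppia*) to 0.08 (*Tbp*) and 0.14 (*Rplp0*).

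The 49 textbook MYC-induced genes, all expressed, had a median difference of -0.16 with quartiles of -0.34 and 0.03, while *Myc* itself was higher. Of these 49 genes, 15 (30.6%) had a difference above 0. The activity of MYC was not measured. The median of all expressed genes was 0.0086, so more of these genes had a difference above 0 than below. Low shares above 0 were also seen in lists of fewer genes. The share was 33.3% for 12 coactivators and for 15 *Myc* regulators, 30% for 10 SIN3-HDAC genes and 40% for 10 reference genes. It was 58.3% for protein turnover, 63.6% for MYC-repressed genes and 54.5% for MondoA and ChREBP targets. In this list 2 genes were higher and 5 were lower, against 12.1% and 9.29% of expressed genes. With scaling to the same upper quartile 1 gene was higher, since *Odc1* fell under the threshold, and 6 were lower. *Shmt2*, which encodes the mitochondrial serine enzyme, had 109 and 224 FPKM (1.04), and *Odc1*, the first enzyme of polyamine synthesis, had 176 and 252 FPKM (0.52). The transferrin receptor gene *Tfrc* had 137 and 80.2 FPKM (-0.78), and *Cad*, which starts pyrimidine synthesis, had 70.4 and 42.3 FPKM (-0.73). *Eif4g1* (-0.69), *Pfas* (-0.59) and *Hspd1* (-0.51) were also lower, in translation initiation, purine synthesis and mitochondrial protein folding.

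The 11 expressed genes of the 12 textbook MYC-repressed genes had a median of 0.34, with quartiles of -0.17 and 1.23, and 5 were higher and 2 were lower, against 12.1% and 9.29% of expressed genes. Over all 12 genes the median was 0.19. The stress-response gene *Gadd45a* (1.90) and *Ndrg1* (1.89), which had 33.1 and 122 FPKM, had the highest differences. *Cdkn1a*, which encodes the CDK inhibitor p21, had 14.2 and 39.6 FPKM (1.48), *Cdkn2b*, which encodes p15, had 33.7 and 66.6 FPKM (0.98), and *Klf6* had 37.9 and 66.7 FPKM (0.82). *Thbs1* (-1.77) and *Gas1* (-0.59) were lower. The members of this list are regulated by many factors other than MYC.

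**Figure D4:**
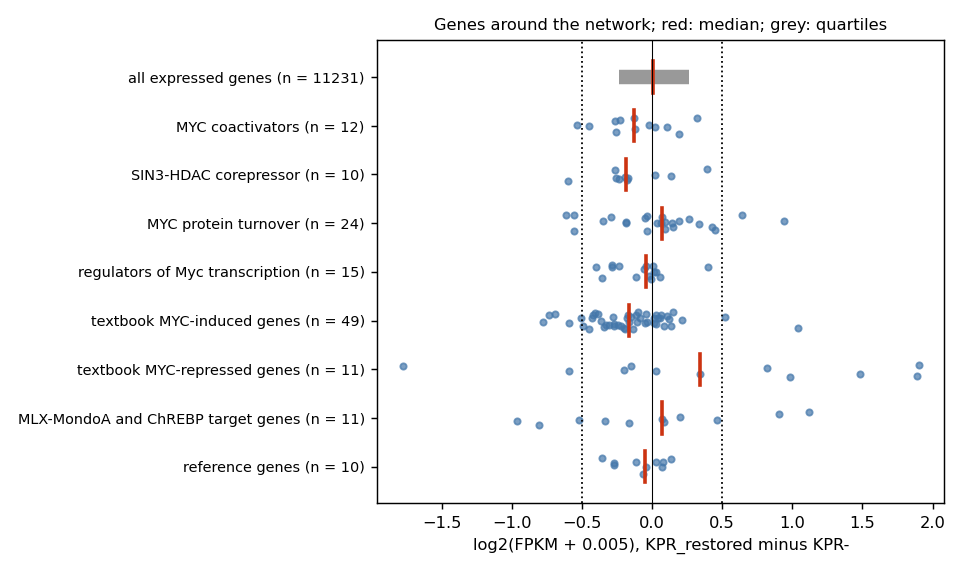
Difference of log2(FPKM + 0.005), KPR_restored minus KPR-, for each expressed gene in 8 lists around the network (points), with list medians (red) and the quartiles of the 11231 expressed genes (grey bar). The median of the MYC-induced genes is -0.16 and that of the MYC-repressed genes is 0.34, whose points spread from -1.77 to 1.90.

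For the MLX arm, the RNA of known target genes of MondoA and ChREBP was listed. The activity of MLX, MondoA and ChREBP was not measured. Of 11 expressed genes of a list of 12, 2 were higher and 3 were lower, against 12.1% and 9.29% of expressed genes, with a median of 0.07. *Txnip* (19.4 and 42.2 FPKM, 1.12) and *Arrdc4* (5.80 and 10.9 FPKM, 0.91), the related arrestin genes that are known as direct MondoA targets, were higher. *Gpd1* (5.89 and 3.02 FPKM, -0.96), *Acaca* (16.7 and 9.59 FPKM, -0.80) and *Fasn* (78.5 and 54.7 FPKM, -0.52), which encode enzymes of glycerol and fatty acid synthesis, were lower. *Mlx* and *Mlxip* themselves were not called, as given above.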

How the data were processed

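The authors sequenced paired ends of directional poly(A) libraries, trimmed the reads, aligned them to mm10 (as the submitters' processing notes name it) with TopHat, and used Cufflinks to make the FPKM that they deposited, 1 value for each of 23183 genes in a library. Tool versions and the annotation are not given in the sources used here. The network genes and the gene lists were chosen with earlier results of these data known. Differences were computed as log2(FPKM + 0.005), with a threshold of 0.5. The added 0.005 matters only for values near 0, where differences rest on few fragments and can be large. *Cdh5*, for example, had 0 and 0.141 FPKM, a difference of 4.87 from 0 and about 12 fragments. With 1 library a condition, no test was made. "Expressed" means a mean FPKM of at least 1.

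Depth was estimated with GENCODE M21 transcript lengths (GRCm38) from genes of 1 transcript, with a fragment length of 215 bases. Of 554 and 568 such genes with 0.5 to 5.5 estimated fragments, 80.3% and 81.5% lay within 0.1 of a whole number. The fit chose depth and fragment length to bring these same genes near whole numbers, so these shares are no independent check. Fragments per gene used the longest RefSeq-matched transcript and are upper estimates. Intervals were Clopper-Pearson for differences and exact Poisson for levels. The depth fit was tested on simulated counts of genes of 1 transcript. Coverage of the intervals was taken from the simulated counts and true depths, so it did not test fragments computed from FPKM. That simulation does not test the choice of transcript for genes with several.

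Named were all 10 network genes, *Runx3*, all genes of the 2 short lists, and the 2 highest and 2 lowest differences of each other list. The rule also covers all cell type markers, of which the text names those that defined a list's level or were called. *Cip2a* (listed under an older symbol), *Fbxw7*, *Pvt1*, *Eif4g1*, *Pfas*, *Hspd1*, *Cdkn1a*, *Cdkn2b*, *Klf6*, *Fasn*, *Psmc3ip* and *Prelid1* were named after their values were seen. Calculations were run in Python 3.11.15 with scipy 1.17.1, pandas 2.3.3 and numpy 2.4.6, and plots were drawn with matplotlib 3.10.9.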

Additional observations from a re-analysis of the deposited data

How the results depend on the processing

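The alternatives were pseudocounts of 0.1 and 1, scaling to the same FPKM total (TPM) or upper quartile, centring on the median gene, a threshold of 1, other filters on level, and the shortest coding transcript for fragments. No sign changed for any of the 10 network genes, but the alternatives could hardly have changed one. Pseudocounts and the shortest transcript were applied alike to both libraries. The scalings moved all genes slightly downward, by less than the smallest positive difference, 0.19 (*Mlx*). With a pseudocount of 1, *Mxd1* and *Mxd4* had differences of 0.99 and 1.08, and *Mycn* had -0.34, under the threshold. With a threshold of 1, 2 network genes were higher, and 325 expressed genes were higher and 155 lower. Without a filter 3193 genes were higher and 3002 lower, and with a mean FPKM of at least 5 these were 872 and 641. These shifts follow from the construction of the alternatives. The scalings moved the median gene by at most -0.02. Of the counts per list, 13 moved by over 1.5 times or fell to 0, while 147 did not. Many of these 147 were counts of 0 that stayed at 0, so that the tally says little about stability. With the shortest coding transcript the interval of *Mycl* was -2.06 to 0.16 and that of *Mlx* -0.31 to 0.68. The lower bounds then fell under 0.5 for *Myc* (0.45 to 0.90), *Mxd1* (0.32 to 2.20), *Mxi1* (0.37 to 0.98) and *Mnt* (0.33 to 1.05). That of *Mxd4* (0.87 to 1.88) did not. No paired analysis was possible because each condition has 1 library, and for the same reason no library could be left out. Near 1 fragment, as for *Nkx2-1*, no difference was detectable at this depth.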

Other observations

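Whether genes with CACGTG in their promoter differed in the same direction as *Myc* was described after the values above had been seen. Of the expressed genes with a RefSeq promoter entry, the 1053 with the letters had a median difference of 0.03, with 13.4% higher and 8.26% lower. The 7541 without the letters had a median of 0.0073, with 11.6% higher and 9.06% lower. Among the textbook MYC-induced genes with an entry, the 13 with the letters (32.5% of 40) had a median of -0.05, with 0 higher and 2 lower, and the 27 without had a median of -0.16, with 2 higher and 2 lower. Genes are not independent replicates and each condition has 1 library, so these values are a description of the 2 libraries.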
